A study of Mus musculus with 6 samples.

Results

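The histone genes of mouse melanoma cells are described here, the replicative genes beside the variants. Members were chosen, and then classed, by symbol: protein-coding genes whose names begin with Hist1h to Hist4h, H2af, H3f or H1f. This gave 82 of 54838 genes in the deposited table: 61 replicative core genes (H2A, H2B, H3 and H4), 6 replicative linker genes (Hist1h1), 4 replacement linker genes (H1f) and 11 variant core genes (H2af and H3f). RNA was sequenced from melanoma cells, here taken as B16F10, a mouse melanoma line, in 3 control libraries and 3 libraries from cells treated with 50 µM fenofibrate, a drug against high blood lipids that acts through the nuclear receptor PPARα. The labels give no vehicle for the controls and no treatment time. The cell line field of the labels runs from B16F10 to B16F15 over the 6 libraries, so that, read as written, each library is a different line, and line and treatment cannot be told apart. The series calls the libraries biological triplicates, and nothing in the labels says how the cultures were separated.

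Core histones form the spool of the nucleosome, and linker histone H1 binds the DNA where it enters and leaves. Replicative histone genes lie in clusters, are transcribed mainly in S phase to package new DNA, and usually give an mRNA that ends in a conserved stem-loop with no poly(A) tail. Variant and replacement histones, such as H3.3, H2A.Z, macroH2A and H1.0, are made outside S phase from ordinary polyadenylated mRNAs and are placed in chromatin by their own chaperones. The labels state that mRNA was enriched but not how, and a library made by poly(A) capture holds only those replicative messages that carry a tail.

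Library totals ran from 13540038 to 14710856 counts, so that 0 counts in a library allow up to 0.204 to 0.222 CPM (counts scaled to a common library total), counting error only. With fenofibrate, 5326 of the 13629 genes that were tested changed at an adjusted p under 0.05 (edgeR quasi-likelihood test, Benjamini-Hochberg adjusted over all genes tested), 2664 higher and 2662 lower. With library totals in place of scaled totals the split was 2180 higher and 3280 lower, and with limma on FPKM it was 2012 and 3025. All 7 melanocyte markers examined were tested, and together they took 21209 to 22592 CPM in control and 26034 to 27577 CPM with fenofibrate, with 5 called higher. The 23 markers of fibroblasts, macrophages, T and B cells, endothelium and keratinocytes took 5.15 to 6.77 CPM in control and 5.85 to 8.79 CPM with fenofibrate. Of these 23 markers, 9 had no count in any library and 1, the lysosomal gene Cd68, was called higher (adjusted p = 0.0489 in edgeR's test), a call found in 3 of 14 alternative settings. Their part in the results was not tested.

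Few replicative histone genes were counted at any depth worth testing. Of the 82 members, 22 had 0 counts in all 6 libraries, 14 had 1 to 10 counts in all, and 17 passed the filter on low counts: 7 of 61 replicative core, 1 of 6 replicative linker, 2 of 4 replacement linker and 7 of 11 variant core genes. The 11 variant core genes together took 912 ± 12.9 CPM in control, the 61 replicative core genes 37.4 ± 2.46 CPM and the 6 replicative linker genes 3.13 ± 0.673 CPM (mean ± SD, n = 3). Whether the enrichment step removed messages without a tail was not tested.

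Most replicative counts fell on genes whose annotated transcript runs past the stem-loop or has none. The histone stem-loop consensus was sought in the GENCODE M21 transcripts of all 82 members. It was found in 46 of the 67 replicative genes, in 23 of them with the transcript ending within 100 bases of the stem-loop and in 23 with the transcript running on further. The first 23 genes had a median of 13 counts over the 6 libraries and 10.5% of all replicative counts. The 23 genes whose annotated transcript runs on had a median of 29 counts and 51.8% of the counts. Most of these were in Hist1h1c (909) and Hist3h2a (678), those of Hist1h1c mainly from the fenofibrate libraries. A further 6 genes had no stem-loop match but at least 30 bases after the stop codon, and these held 36.6% of the counts, nearly all in Hist2h2be (982) and Hist1h2bc (630). The remaining 15, annotated with fewer than 30 bases after the stop codon, held 1.07%. Levels in these groups are counts, not corrected for length, and longer transcripts give more counts.

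**Figure D1:**
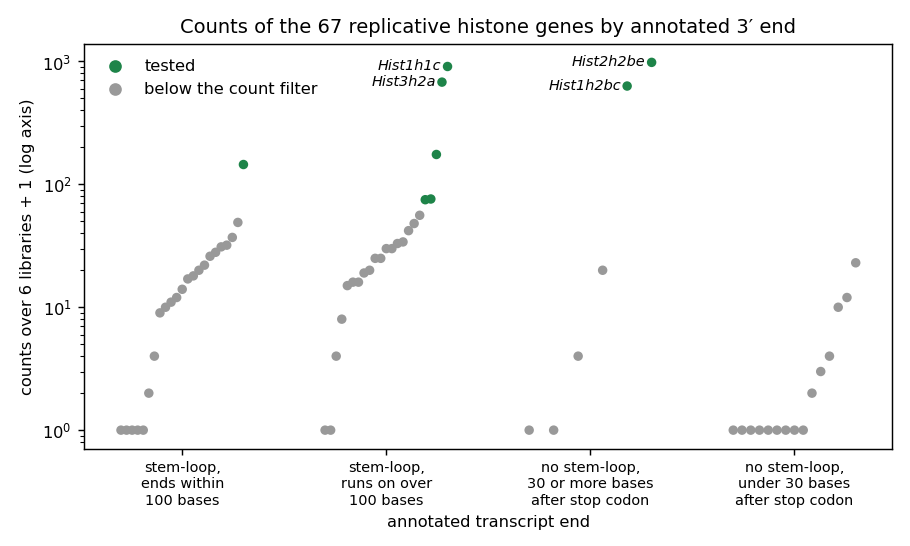
Counts over all 6 libraries plus 1 (log axis) for each of the 67 replicative histone genes, grouped by how the annotated transcript ends. Each point is 1 gene, green where it was tested. The 4 most counted genes, Hist2h2be (982), Hist1h1c (909), Hist3h2a (678) and Hist1h2bc (630), lie in the groups whose annotated transcripts run past the stem-loop or lack one.

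The stem-loops of the replicative genes that were counted most, with that of the variant gene H2afx, are printed from the GENCODE M21 transcripts, 5′ to 3′ on the mRNA strand, with the stem-loop in capitals, because this element sets how such a message normally ends.
Hist1h1c: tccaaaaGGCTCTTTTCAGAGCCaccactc
Hist3h2a: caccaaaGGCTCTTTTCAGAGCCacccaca
Hist1h4i: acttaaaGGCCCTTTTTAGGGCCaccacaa
Hist1h3c: aaaaaaaGGCTCTTTTAAGAGCCacctaag
H2afx: ccacaaaGGCCCTTTTAAGGGCCaccacct
On GRCm38 these windows lie at chr13:23739505-23739534 (plus strand), chr11:58955165-58955194 (plus), chr13:22040959-22040988 (minus), chr13:23745040-23745069 (minus) and chr9:44335233-44335262 (plus). The annotated transcript runs on for 840 bases past the stem-loop in Hist1h1c, 1643 in Hist3h2a, 330 in Hist1h4i and 822 in H2afx, but for only 74 in Hist1h3c. Hist1h1c then carries a poly(A) signal that starts 26 bases before its annotated end, shown with the signal in capitals and lying at chr13:23740330-23740359 (plus strand).
Hist1h1c poly(A) signal: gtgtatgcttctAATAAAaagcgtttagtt
Hist3h2a has the same signal 34 bases before its end and Hist1h4i the variant ATTAAA 21 bases before its end, and neither was found within 50 bases of the end of Hist1h3c.

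Among the 17 genes tested, 6 rose with fenofibrate, 2 fell and 9 were not called. Over all genes tested 39.1% were called, 19.5% higher and 19.5% lower, and the 8 histone genes called are not read as particular to the family. The groups did not overlap in 6 genes that were higher and 3 that were lower, beside 26.4% and 26.9% of all genes tested. Among them the largest change was in a replicative linker gene, Hist1h1c. The replicative core genes Hist1h2bc and Hist3h2a, and the H3.3 gene H3f3b rose as well, and the macroH2A gene H2afy and the H2A variant gene H2afj fell. The median log2 fold change was 0.16 over the 17 genes, against -0.0021 over all genes tested. It was 0.27 over 7 replicative core genes, 0.15 over 7 variant core genes and 0.22 over 3 linker genes of both kinds. In limma on log2(FPKM + 0.5) with no filter the median of the same 7 replicative core genes was 0.061. The fitted changes were of both signs in every class except replicative linker, where 1 gene was tested.

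**Figure D2:**
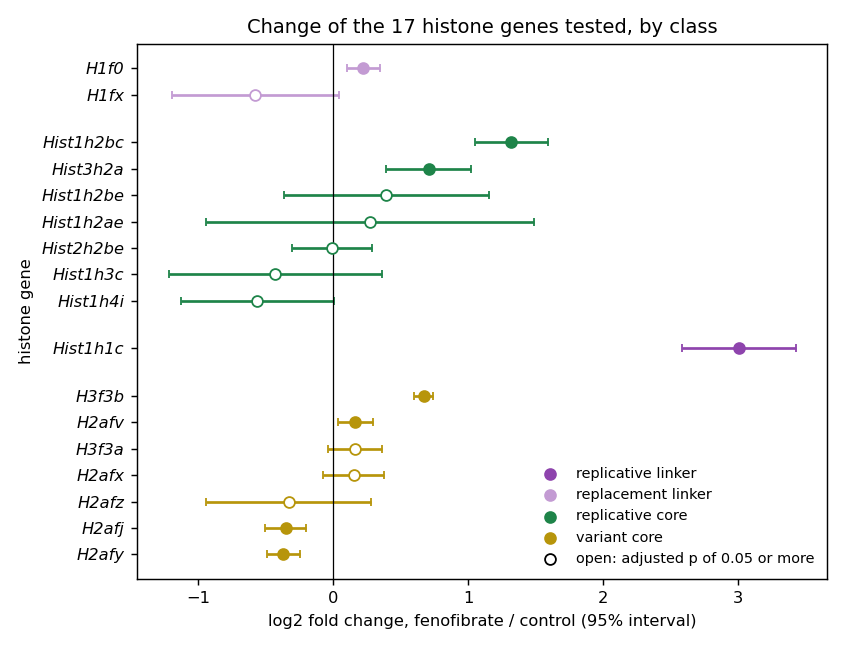
Log2 fold change, fenofibrate over control, with its 95% interval from edgeR's quasi-likelihood test, for the 17 histone genes tested, coloured by class. Filled points have an adjusted p under 0.05. Hist1h1c stands at 3.003, and the other called genes run from -0.37 (H2afy) to 1.32 (Hist1h2bc).

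Hist1h1c encodes H1.2, 1 of the replicative H1 subtypes, and is a single-exon gene on the plus strand at chr13:23738808-23740367 (GRCm38, ENSMUSG00000036181). Its counts were 42, 24 and 35 in control and 268, 273 and 267 with fenofibrate. The lowest fenofibrate library stands far above the highest control library. In normalised CPM it stood at 2.41 ± 0.685 in control and at 19.4 ± 0.847 with fenofibrate (mean ± SD over 3 libraries each), an 8.02-fold rise (log2 fold change 3.003 ± 0.18 SE, 95% interval 2.58 to 3.43, edgeR adjusted p = 3.35e-05). Of its distinct 50-base stretches, 8.54% also occur in transcripts of another gene, so most of its sequence is its own among the annotated transcripts.

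The other replicative H1 genes stayed below the filter on low counts. Hist1h1a and Hist1h1b had 0 counts in all 6 libraries, and Hist1h1t, the testis H1, had 3 in all. Hist1h1e had 4, 7 and 4 counts in control and 2, 5 and 2 with fenofibrate, and Hist1h1d 5, 3 and 5 against 8, 17 and 9. At these counts the direction of Hist1h1e cannot be read, and that of Hist1h1d rests on groups that do not overlap but hold few reads. Hist1h1e shares exon sequence with Hist1h2be.

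Of the replacement linkers, H1f0 encodes H1.0, known to accumulate in cells that slow their division or differentiate, and it lies on the plus strand at chr15:79028450-79030504. It was counted 3249, 3306 and 3552 times in control and 3661, 4112 and 3970 times with fenofibrate. The rise, from 240.7 ± 14.72 to 281.1 ± 8.78 normalised CPM, was 1.17-fold (log2 fold change 0.22 ± 0.05 SE, edgeR adjusted p = 0.0121) and left the groups apart. In limma with no filter on low FPKM it missed the threshold (adjusted p = 0.0716). H1fx, which encodes H1.10, had 55, 41 and 50 counts in control and 41, 33 and 23 with fenofibrate. The groups touch at 41, and the log2 fold change of -0.58 (95% interval -1.19 to 0.04, edgeR adjusted p = 0.125) was not called.

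The make-up of linker mRNA moved towards Hist1h1c, although H1f0 remained by far the most abundant. Per length of merged exon, H1f0 made up 95.4%, 96.8% and 96.3% of the linker counts in the control libraries and 89.5%, 90.6% and 90.9% with fenofibrate. Hist1h1c made up 1.27% ± 0.350 in control and 8.20% ± 0.375 with fenofibrate. H1fx made up 2.35% ± 0.354 in control and 1.27% ± 0.403 with fenofibrate (mean ± SD, n = 3 each). The groups do not overlap for any of the 3 genes. These shares describe mRNA retained in the libraries, and are not shares of H1 protein.

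Among the 7 replicative core genes tested, Hist1h2bc, an H2B gene of the large cluster on chromosome 13 (chr13:23684199-23692908, plus strand), changed most. It was counted 61, 65 and 55 times in control and 144, 149 and 156 times with fenofibrate, with the groups far apart. It stood at 4.31 ± 0.283 normalised CPM in control and 10.8 ± 0.174 with fenofibrate, a 2.49-fold rise (log2 fold change 1.32 ± 0.12 SE, edgeR adjusted p = 0.000169). Its annotated transcript has 2 exons and no stem-loop match. Of its 50-base stretches 30.6% occur in other genes, so that part of its sequence cannot be assigned to it alone.

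Hist3h2a, an H2A gene of a small cluster on chromosome 11 (chr11:58954685-58956830, plus strand), had 77, 88 and 93 counts in control and 123, 135 and 162 with fenofibrate. It rose 1.63-fold, from 6.14 ± 0.599 to 10.03 ± 1.06 normalised CPM (log2 fold change 0.71 ± 0.13 SE, edgeR adjusted p = 0.00505), and the groups do not overlap. Its exon overlaps Trim17 on the same strand, which had 1, 5 and 2 counts in control and 3, 1 and 1 with fenofibrate, far fewer than Hist3h2a itself. Of its 50-base stretches 31.5% occur in other genes.

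The most counted gene classed as replicative core was not called. Hist2h2be, an H2B gene on chromosome 3, had 145, 195 and 154 counts in control and 160, 151 and 177 with fenofibrate. The groups overlap throughout, with a log2 fold change of -0.01 ± 0.13 SE (95% interval -0.30 to 0.29, edgeR adjusted p = 0.973). None of its 50-base stretches occur in another gene. Its annotated transcript has no stem-loop match, and a poly(A) signal starts 22 bases before its end. Its place among the replicative genes here rests on its symbol.

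The tested H4 and H3 genes lay on the lower side without being called. Hist1h4i had 31, 39 and 34 counts in control and 21, 18 and 31 with fenofibrate, and after scaling for library size the groups do not overlap (log2 fold change -0.56, 95% interval -1.13 to 0.0025, edgeR adjusted p = 0.105). Left without fenofibrate replicate 3 the fit did call it, at -0.79 with an adjusted p of 0.0487, as did limma on log2(FPKM + 0.5) with a filter (adjusted p = 0.0423). Hist1h3c had 24 to 31 counts in control and 12 to 29 with fenofibrate, and the groups overlap (log2 fold change -0.43, adjusted p = 0.350). Its log2 fold change was -0.81 without fenofibrate replicate 1 and -0.15 without fenofibrate replicate 2. Hist1h2be and Hist1h2ae, with 7 to 16 and 7 to 25 counts per library, had wide intervals, from 0.776-fold to 2.22-fold and from 0.521-fold to 2.81-fold (adjusted p = 0.373 and 0.710).

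Summed over each family, which does not depend on how reads were divided between near-identical genes of that family, replicative H2A and H2B counts were higher with fenofibrate and H4 counts lower. The 18 H2A genes summed to 105, 131 and 136 counts in control and 169, 198 and 187 with fenofibrate. The 18 H2B genes summed to 241, 296 and 245 against 341, 346 and 374. The groups are apart in both. Most of the H2A difference is Hist3h2a itself, and nearly all of the H2B difference is Hist1h2bc itself. The 13 H4 genes summed to 67, 73 and 59 counts in control and 47, 39 and 52 with fenofibrate, a ratio of 0.672 in CPM. Hist1h4i itself makes the largest part of the H4 difference. The 12 H3 genes summed to 59, 57 and 74 against 75, 49 and 63, where the groups overlap. The 54 replicative core genes below the filter had, in all, 109, 128 and 120 counts in control and 135, 127 and 107 with fenofibrate, or 8.65 against 8.66 CPM. These sums are given without a test.

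**Figure D3:**
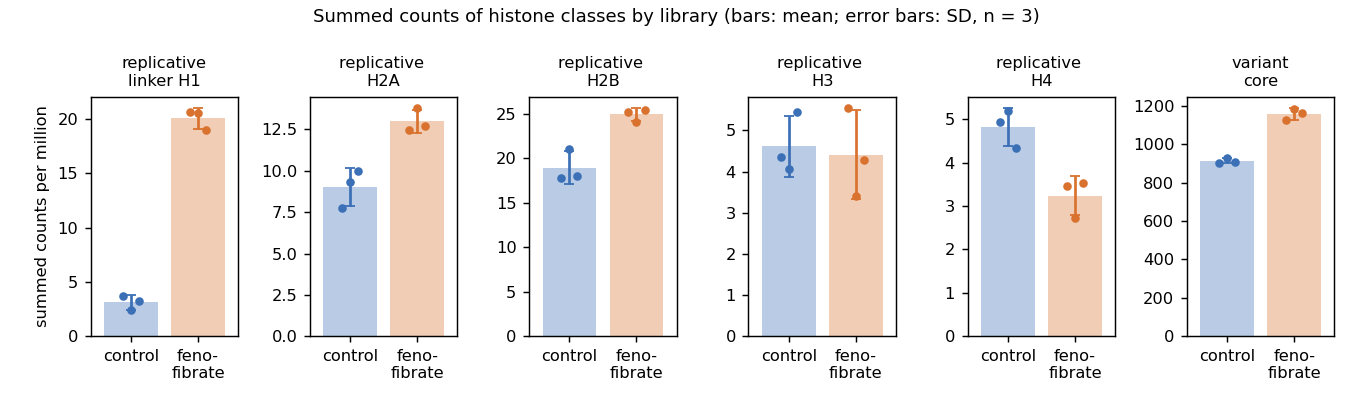
Summed CPM of 6 histone groups, each on its own axis from 0, with 1 point per library, the mean as a bar and the SD as an error bar (n = 3). Replicative linker H1 goes from 3.13 to 20.1, replicative H4 from 4.82 to 3.24, and variant core genes from 912 to 1157, while the groups overlap for replicative H3. The rise of the variant core sum is no larger than that of H3f3b alone. H3f3b held 56.2% of the variant core counts in control and 67.8% with fenofibrate.

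The variant core genes held most of the histone counts in these libraries, whose enrichment step may have lost messages without a tail. H3f3b and H3f3a both encode H3.3, the H3 variant placed in active genes and at other sites without DNA replication. H3f3b (chr11:116021912-116027962, minus strand) was counted 6974, 7160 and 7027 times in control and 10525, 11374 and 11574 times with fenofibrate. In normalised CPM it stood at 503.8 ± 5.31 in control and 801.3 ± 5.86 with fenofibrate, a rise of 1.59-fold (log2 fold change 0.67 ± 0.03 SE, 95% interval 0.60 to 0.74, edgeR adjusted p = 1.12e-05).

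H3f3a (chr1:180800832-180813943, minus strand) had 1828, 2232 and 1830 counts in control and 1897, 2411 and 2254 with fenofibrate. The groups overlap, and the log2 fold change of 0.16 ± 0.09 SE (95% interval -0.04 to 0.36, edgeR adjusted p = 0.172) was not called. Of its 50-base stretches 27.1% occur in other genes. Its processed pseudogenes H3f3c and H3f3a-ps2 were themselves assigned 497 to 512 and 396 to 454 counts per control library and were not called (edgeR adjusted p = 0.260 and 0.121). Whether those reads come from H3f3a was not tested. Per length of merged exon, H3f3b made up 81.8%, 79.1% and 81.9% of H3.3 counts in control and 86.7%, 84.7% and 85.8% with fenofibrate.

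The H2A variants split. H2afy encodes macroH2A1, a large H2A variant with a globular domain that is enriched in silent chromatin, and it lies at chr13:56073619-56136361 on the minus strand. It was counted 1459, 1624 and 1524 times in control and 1082, 1236 and 1232 times with fenofibrate, with every fenofibrate library lower. It fell 1.29-fold, from 109.6 ± 4.14 to 84.9 ± 2.98 normalised CPM (log2 fold change -0.37 ± 0.05 SE, edgeR adjusted p = 0.00133). The table gives 1 value per gene, so the spliced forms of macroH2A1 cannot be told apart. H2afj (chr6:136808244-136810074, plus strand), which encodes H2A.J, had 679, 705 and 633 counts in control and 470, 555 and 549 with fenofibrate. It fell 1.28-fold (log2 fold change -0.35 ± 0.07 SE, edgeR adjusted p = 0.00458).

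H2A.Z, which marks promoters and is exchanged into nucleosomes by dedicated remodellers, is encoded by H2afz and H2afv. H2afv had 631, 679 and 670 counts in control and 689, 761 and 758 with fenofibrate. Its 1.12-fold difference passed the threshold narrowly (log2 fold change 0.17 ± 0.05 SE, edgeR adjusted p = 0.0466) and did so in none of 14 alternative settings (adjusted p from 0.0640 to 0.161). H2afz had 194 to 296 counts in control and 116 to 263 with fenofibrate, a spread within the groups larger than the difference between them (log2 fold change -0.33, 95% interval -0.94 to 0.28, edgeR adjusted p = 0.353). Its log2 fold change was -0.097 without fenofibrate replicate 1, -0.14 without control replicate 1 and -0.61 without fenofibrate replicate 3. Of the 50-base stretches of H2afz 35.4% occur in other genes, the largest share among the variant genes tested, while H2afv has none.

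H2afx encodes H2A.X, the variant that is phosphorylated around DNA breaks. It had 387, 410 and 485 counts in control and 451, 488 and 477 with fenofibrate, and the groups overlap because of control replicate 3. The log2 fold change was 0.15 (95% interval -0.08 to 0.38, edgeR adjusted p = 0.260), and without control replicate 3 it was 0.26 (adjusted p = 0.0330). The other 4 variant genes, H2afy2 and 3 H2afb genes, had 5 counts together over all libraries.

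Levels can be compared between genes only per length. The deposited FPKM of several histone genes rests on a length above that of the merged exons, 5708 against 2976 bases for H3f3b and 3880 against 1776 for H2afz, so levels are given here as CPM per kilobase of merged exon. In control H3f3b was highest at 172.3 ± 1.34, followed by H1f0 at 119.2 ± 6.89, H3f3a at 40.7 ± 3.97 and H2afv at 29.4 ± 0.887 (mean ± SD, n = 3). H2afj (26.7) and H2afx (22.5) had overlapping ranges, and H2afy (16.4) and H2afz (9.81) came next. The genes classed as replicative began with Hist2h2be at 4.56 ± 0.643 and Hist1h2bc at 3.79 ± 0.260. From Hist1h2bc to H1fx at 2.91, each gene overlapped the next in this order. With fenofibrate Hist1h1c moved from 1.57 ± 0.448 to 12.2 ± 0.527, above every other replicative gene and close to H2afy at 12.2 ± 0.454.

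**Figure D4:**
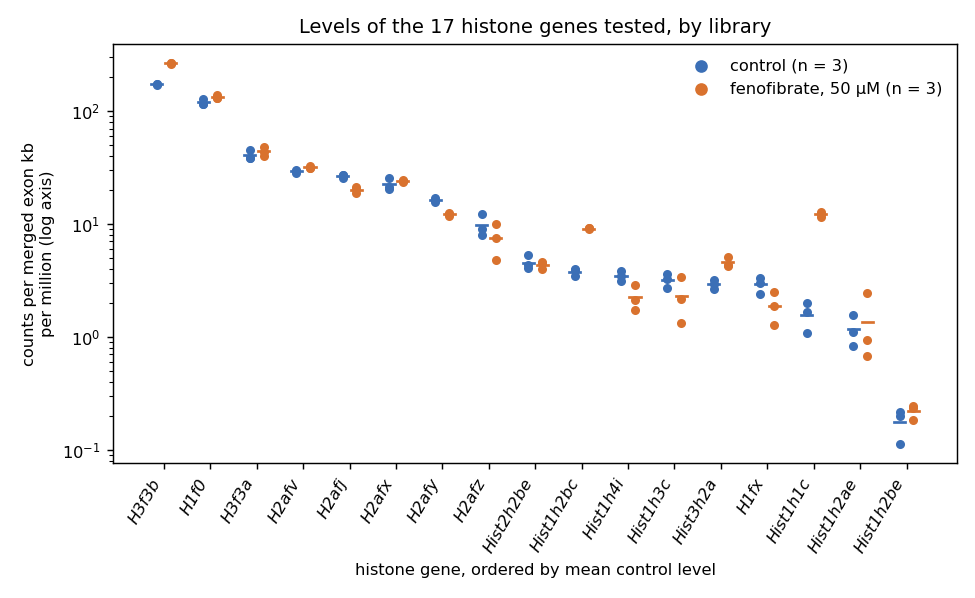
Level of each of the 17 tested histone genes in every library, as CPM per kilobase of merged exon (log axis), ordered by the control mean. Short lines are group means. Variant core genes and H1f0 lie above all replicative genes in control, and Hist1h1c moves from 1.57 to 12.2 with fenofibrate.

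The promoters of 3 of the genes that rose, 1 from each of the linker, replicative core and variant classes, are printed from RefSeq (GRCm38.p6) as windows that end shortly after the annotated start, 5′ to 3′ on the gene's strand. Capitals mark the CCAAT box, the TATAAA box and the octamer (ATTTGCAT), sought on both strands.
Hist1h1c promoter: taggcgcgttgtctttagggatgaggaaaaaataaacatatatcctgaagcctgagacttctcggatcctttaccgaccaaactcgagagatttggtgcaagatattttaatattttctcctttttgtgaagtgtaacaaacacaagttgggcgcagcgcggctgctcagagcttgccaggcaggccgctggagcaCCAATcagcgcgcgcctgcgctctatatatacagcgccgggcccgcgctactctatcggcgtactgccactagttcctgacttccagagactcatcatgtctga
Hist3h2a promoter: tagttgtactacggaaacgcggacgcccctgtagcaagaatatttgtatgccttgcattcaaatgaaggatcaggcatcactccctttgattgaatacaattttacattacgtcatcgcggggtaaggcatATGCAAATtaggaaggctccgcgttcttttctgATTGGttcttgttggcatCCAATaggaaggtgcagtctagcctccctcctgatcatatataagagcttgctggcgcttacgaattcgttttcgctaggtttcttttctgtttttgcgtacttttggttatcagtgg
H3f3b promoter: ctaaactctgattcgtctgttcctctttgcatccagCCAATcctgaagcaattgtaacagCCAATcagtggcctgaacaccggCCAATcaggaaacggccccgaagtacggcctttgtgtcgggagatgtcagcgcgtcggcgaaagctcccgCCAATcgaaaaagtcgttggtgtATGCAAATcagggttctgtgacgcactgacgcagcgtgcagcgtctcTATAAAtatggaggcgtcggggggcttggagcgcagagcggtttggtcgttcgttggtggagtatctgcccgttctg
They lie at chr13:23738557-23738856 (plus strand), chr11:58954435-58954734 (plus) and chr11:116024455-116024754 (minus). CCAAT occurs once in the window of Hist1h1c, 2 times in that of Hist3h2a and 4 times in that of H3f3b, and in 37.4% of all 32851 promoter windows of this length. The octamer, known as an element of H2B promoters, occurs in the windows of Hist3h2a and H3f3b and in 1.74% of all windows. TATAAA occurs in that of H3f3b and in 13.6% of all. Among 62 replicative genes with a window, 53 held CCAAT, 35 TATAAA and 14 the octamer, and among 16 H2B genes 7 held the octamer. A match is a description of the sequence and not evidence of binding.

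Genes that make, process and deposit histones were mostly lower where they were called. Of 22 genes of histone gene expression and 3′ end processing, 8 fell, 1 rose and 13 were not called (median log2 fold change -0.15), so that 9 of 22 were called, near the 39.1% of all genes tested. By direction, 19.5% of all genes tested were called lower and 19.5% higher. With library totals in place of scaled totals 13 fell and 0 rose, while at that scaling more genes fell than rose over the whole table. Npat, the coactivator that switches on replicative histone genes, fell, with a log2 fold change of -0.33, from 74.0 ± 1.12 to 59.0 ± 1.34 normalised CPM (edgeR adjusted p = 0.00192). Lsm11, part of the U7 particle that cuts the 3′ end, fell by 0.40 on the log2 scale, Cstf2, a cleavage factor, by 0.38 and Eri1, a nuclease that trims the stem-loop end, by 0.29 (adjusted p from 0.00509 to 0.0223). The call of Lsm11 was kept in 11 of 14 alternative settings, with an adjusted p of up to 0.071. Slbp, which binds the stem-loop, rose 1.13-fold (adjusted p = 0.0409), a call found in 1 of 14 alternative settings.

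Of 37 genes of histone chaperones and exchange, 22 fell, 3 rose and 12 were not called (median log2 fold change -0.21). Over all genes tested 19.5% were called lower and 19.5% higher. Chaf1a, the large subunit of the CAF-1 chaperone that deposits new H3 and H4 behind the fork, fell 1.54-fold, from 177.2 ± 3.48 to 115.0 ± 7.43 normalised CPM (edgeR adjusted p = 0.000169), while the change of its partner Chaf1b was -0.07 on the log2 scale (edgeR adjusted p = 0.297). Asf1b, which hands H3 and H4 to CAF-1, fell 1.36-fold. Hira and Daxx, which encode chaperones of H3.3, fell by 0.47 and 0.58 on the log2 scale, and Set, a chaperone gene, and Ruvbl1, an ATPase of H2A.Z exchange complexes, by 0.60 and 0.53. In the other direction Spty2d1, an H3 and H4 chaperone gene, rose 1.73-fold and Ubn1, a partner of HIRA, 1.34-fold. These 7 further genes had adjusted p values from 0.000114 to 0.00528. Cenpa, the centromeric H3 variant, was not called (log2 fold change 0.06, adjusted p = 0.721).

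The S phase genes moved beside these. Of 35 tested, 29 fell, 1 rose (Slbp) and 5 were not called, with a median log2 fold change of -0.43, the largest falls being in Uhrf1 (1.73-fold), Tyms (1.64-fold), Pola2 (1.55-fold) and Tk1 (1.54-fold, edgeR adjusted p = 0.000445). These counts stand beside 19.5% called lower and 19.5% called higher over all genes tested. The S phase list summed to 5854 to 6010 CPM in control and 4330 to 4621 CPM with fenofibrate. In bulk RNA, fewer cells in S phase and less of these messages per cell cannot be told apart, and the part of either in the histone values was not tested. The fitted changes of the tested histone genes classed by symbol as replicative were of both signs, 5 positive and 3 negative. Hist1h1c, Hist1h2bc and Hist3h2a were called higher and none was called lower. Of the 5 not called, Hist1h2be (0.39) and Hist1h2ae (0.27) had positive log2 fold changes. Those of Hist2h2be (-0.01), Hist1h4i (-0.56) and Hist1h3c (-0.43) were negative. The summed H4 counts were lower, without a test and with Hist1h4i among them, and the summed H3 counts overlapped.

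**Figure D5:**
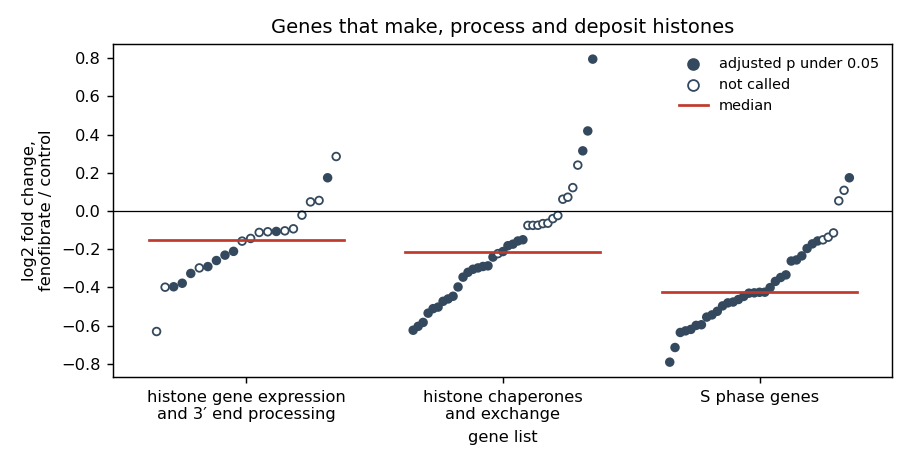
Log2 fold change, fenofibrate over control, of each tested gene in 3 lists, ordered within the list. Filled points have an adjusted p under 0.05 and red lines are medians, which stand at -0.15, -0.21 and -0.43 from left to right.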

How the data were processed

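Per the file headers, the deposited table gives raw counts per gene and FPKM made by the authors for 6 libraries. HISAT2 2.0.4, StringTie 1.3.0 and GRCm39 are named, without roles, per the submitters' processing notes. Strand setting and the treatment of multiply mapped reads are not given in the sources used here, and near-identical histone genes are exposed to both. Coordinates in the table are those of GENCODE M21 on GRCm38 (98.7% of shared gene IDs, all 82 members).

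Counts were tested in R 4.3.3 with edgeR 4.0.16 (filterByExpr, TMM, glmQLFTest, no covariate), adjusted over all genes. Normalised CPM use TMM-scaled totals. SE is the log2 fold change divided by the square root of F. On simulated counts for this comparison (13469 genes tested), 8%, 50%, 66% and 88% of 50 genes each changed 1.25-, 1.5-, 2- and 4-fold were called, with 8 false calls among 114. Libraries of a group differed by more than sampling noise. Alternatives were DESeq2 1.42.0, limma 3.58.1 on log2(FPKM + 0.5) or log2(FPKM + 0.1), other scaling, no filter, a replicate block and leaving out each library.

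The members and gene lists were chosen with earlier results of these data known. Values per library are given for called members and, in each class, the 4 with the highest mean FPKM, with others by range or count. List genes are up to 4 called genes with the largest change in the main direction and 2 in the other, plus Slbp, Npat, Asf1b, Chaf1a, Chaf1b, Hira and Cenpa. Shared sequence is the share of a gene's 50-base stretches found in M21 transcripts of another gene, on either strand. Poly(A) signals (AATAAA or ATTAAA) were sought within 50 bases of the annotated end.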

Additional observations from a re-analysis of the deposited data

How the results depend on the processing

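Over 14 alternative settings, 5 to 7 histone genes were called higher and 2 or 3 lower, against 6 and 2. Hist1h1c (log2 fold change 2.63 to 3.20), Hist1h2bc (1.17 to 1.36), Hist3h2a (0.57 to 0.78), H3f3b (0.61 to 0.68), H2afy (-0.42 to -0.34) and H2afj (-0.41 to -0.31) were called in the same direction in all 14. H2afv was called in none, so that 1 variant core gene was called higher, not 2, with DESeq2, either other scaling, no filter on counts, the replicate block and all 3 limma fits, and 1 to 2 when libraries were left out (2 without control replicate 3, where H2afx was called). In limma with no filter no replacement linker gene was called (0). With either filtered limma fit 4 replicative core genes were called higher, Hist1h2bb and Hist2h2aa2, both below the count filter, being added. In all 3 limma fits 1 was called lower, Hist1h4i with a filter and Hist1h4d without. Leaving out libraries gave 0 to 1 lower. The median of the tested replicative core genes was -0.0031 on log2(FPKM + 0.1) and 0.0056 on log2(FPKM + 0.5), both over 6 genes, since the FPKM filter removed Hist1h2be. Over all 7, on log2(FPKM + 0.5) with no filter, it was 0.061. Summed over all 61 replicative core genes, tested or not, the log2 ratio was 0.29 in CPM and 0.17 in FPKM. That of all 11 variant core genes, of which H3f3b is the largest part, was 0.34 in CPM, 0.40 with TMM or DESeq2 scaling and 0.28 in FPKM. With libraries left out Hist1h2ae ran from -0.48 (without fenofibrate replicate 2) to 0.60, and Hist2h2be from -0.086 to 0.11 (without control replicate 2), with 0.05 without fenofibrate replicate 2. In the processing list no gene (0) was called higher in any of the 8 settings that keep all libraries, 0 to 2 when libraries were left out, and 13 rather than 8 were lower with library totals. In the S phase list 0 were higher in those 8 settings and 0 to 1 when libraries were left out. Among the chaperones 3 to 5 were higher when libraries were left out, 5 of them without control replicate 1. The cause of these differences was not tested.

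Same-numbered libraries did not deviate together over all genes (correlations 0.020, 0.0097 and -0.023). Taken over all genes at once, this check cannot show whether single genes are paired by replicate number. With the replicate block 2293 genes were called higher and 2247 lower over the whole table, and among the histone genes 5 and 2.

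Of the 82 members 65 were below the count filter, 59 of them replicative. With no filter edgeR gave a value for 43 of the 65.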

Other observations

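Among the 65 histone genes below the filter on low counts, the lowest adjusted p that edgeR gave with no filter was 0.0586, while limma on FPKM called Hist1h2bb and Hist2h2aa2 higher and Hist1h4d lower in at least 1 fit. Hist1h2bb had 2, 2 and 3 counts in control and 5, 4 and 5 with fenofibrate (adjusted p = 0.300 in edgeR with no filter). The genes nearest to the threshold in edgeR, chosen after their values were seen, had changes of both signs. Hist2h2aa2, an H2A gene, had 2, 2 and 3 counts in control and 13, 12 and 4 with fenofibrate (log2 fold change 2.01, edgeR adjusted p = 0.0586), and all of its 50-base stretches occur in other genes. Hist1h4d, an H4 gene, had 3, 4 and 6 counts against 1, 0 and 1 (adjusted p = 0.0654), and the linker gene Hist1h1d 5, 3 and 5 against 8, 17 and 9 (adjusted p = 0.0772).

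Gm5577, annotated antisense to H1fx, had 10, 3 and 5 counts in the control libraries and 0 in each fenofibrate library, while H1fx had 55, 41 and 50 against 41, 33 and 23. Gm5577 fell below the filter, was chosen after its values were seen, and without a stated strand setting its reads and those of H1fx cannot be told apart.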
